A study of Mus musculus with 26 samples.

Results

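The table of 16718 genes holds 61 rows whose symbol runs from Zfp900 to Zfp999, chosen by symbol alone and not by any measured value, and all 61 were matched by symbol to a gene of the GENCODE M21 annotation. RNA sequencing measured each of them in 26 libraries of mouse cells undergoing chemical reprogramming, where small molecules carry fibroblasts toward pluripotency. MEF (mouse embryonic fibroblasts, day 0) has 1 library. The course with all chemicals and the course without BrdU (bromodeoxyuridine, a thymidine analogue taken up into DNA) have 1 library each on days 6, 12, 18, 22, 30, 36 and 40. A course that lacked Chir (a GSK3 inhibitor used to activate Wnt signalling; called the course without Chir) has 1 library on each of days 6, 12, 18, 22 and 30. CiPSC (chemically induced pluripotent stem cells) has 6 libraries, and the labels do not say from which course, line or passage they came. The names of the MEF and course libraries share a prefix and running numbers that the CiPSC names lack. Whether CiPSC was prepared and sequenced with the others is not stated. The labels give no strain, genotype or animal for any group, so p-values measure only the spread between these libraries and days.

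Zinc finger proteins of this kind bind DNA through a row of C2H2 fingers, each a short fold held by a zinc ion through 2 cysteines and 2 histidines. Many also carry a KRAB domain, which recruits Trim28 (KAP1) and, through it, the histone methyltransferase Setdb1. In mouse embryonic stem cells and early embryos this machinery is known for silencing endogenous retroviruses and other repeats. DNA methylation, maintained by Dnmt1 and Uhrf1, also takes part in silencing some of these sequences, to a degree that differs between cell types. The genes lie in tandem clusters whose members arose by duplication, so neighbours can be close in sequence.

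The 61 genes fell into a few places in the genome (GRCm38, which is mm10). Taking neighbours within 1 Mb of each other as a group, 44 of the 61 lay in groups and 17 on their own. The largest group has 16 members, spans 2.34 Mb of chromosome 4 (chr4:145510759-147848366) and runs from Zfp990 to Zfp933. A group of 10 lies on chromosome 17 (chr17:21567008-22867134), one of 9 on chromosome 2 (chr2:175372436-178078476), one of 4 on chromosome 7 (chr7:42579783-43192109), one of 3 on chromosome 8 and a pair on chromosome 13. All 61 are annotated as protein coding. In their translated reading frames, 59 of 61 held at least 2 matches to a C2H2 finger pattern, up to 21 in Zfp974, with a median of 11 over the 61. No finger match was found in Zfp972 (139 residues) or Zfp935 (150 residues). A pattern for the first part of the KRAB domain matched 28 members in a first form, 45 in a second and 57 by either. The pattern was widened after the matches had been seen, so these counts describe the patterns as much as the proteins.

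Promoter windows from RefSeq (GRCm38.p6, 250 bases before to 50 after the annotated start) were found for 51 of the 61 genes and for 10 of the 16 on chromosome 4. They are shown because 8 of those 10 windows shared runs of at least 12 bases with 7 others of the group. In the lines for Zfp980, Zfp982 and Zfp985, which are among the most abundant members, capitals mark bases in runs of 12 that at least 3 other windows of the group hold. Zfp933, at the end of the group, shared no such run and has no capitals.
Zfp980 (chr4:145670447-145670746, + strand): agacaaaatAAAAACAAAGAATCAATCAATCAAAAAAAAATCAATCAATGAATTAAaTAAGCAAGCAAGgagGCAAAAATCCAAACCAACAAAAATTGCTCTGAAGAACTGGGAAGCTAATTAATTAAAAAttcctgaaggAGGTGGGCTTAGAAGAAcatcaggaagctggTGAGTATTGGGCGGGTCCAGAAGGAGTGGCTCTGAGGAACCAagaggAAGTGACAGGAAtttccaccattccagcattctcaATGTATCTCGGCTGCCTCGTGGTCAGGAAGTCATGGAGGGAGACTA
Zfp982 (chr4:147492167-147492466, + strand): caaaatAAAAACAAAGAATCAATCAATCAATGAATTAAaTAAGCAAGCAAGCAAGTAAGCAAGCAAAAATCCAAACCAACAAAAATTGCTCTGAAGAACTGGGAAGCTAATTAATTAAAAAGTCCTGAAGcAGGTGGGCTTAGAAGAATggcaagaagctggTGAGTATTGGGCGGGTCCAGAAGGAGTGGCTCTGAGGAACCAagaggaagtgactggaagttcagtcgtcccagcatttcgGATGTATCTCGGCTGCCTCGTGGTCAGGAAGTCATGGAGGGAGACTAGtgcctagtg
Zfp985 (chr4:147553027-147553326, + strand): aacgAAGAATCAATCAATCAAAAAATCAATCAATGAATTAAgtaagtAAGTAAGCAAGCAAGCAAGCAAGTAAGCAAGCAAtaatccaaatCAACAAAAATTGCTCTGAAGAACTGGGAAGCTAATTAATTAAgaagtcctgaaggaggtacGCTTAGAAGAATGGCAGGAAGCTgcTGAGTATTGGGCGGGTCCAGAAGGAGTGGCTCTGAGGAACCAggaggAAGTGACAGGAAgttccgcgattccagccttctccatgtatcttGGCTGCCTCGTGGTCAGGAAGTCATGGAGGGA
Zfp933 (chr4:147848369-147848668, - strand): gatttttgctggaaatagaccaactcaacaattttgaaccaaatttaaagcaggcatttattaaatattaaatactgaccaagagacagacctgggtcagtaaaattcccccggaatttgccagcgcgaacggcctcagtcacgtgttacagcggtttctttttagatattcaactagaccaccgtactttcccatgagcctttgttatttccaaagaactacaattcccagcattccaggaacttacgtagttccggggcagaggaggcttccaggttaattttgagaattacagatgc

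The longest run held by at least 5 of the 10 windows was 28 bases, ctgaagaactgggaagctaattaattaa, found in Zfp980, Zfp982, Zfp985, Zfp987 and Zfp988. Of 32839 other RefSeq promoter windows, 1 held it, that of Zfp534, a gene of the same chromosome 4 segment whose symbol keeps it out of the 61. The window of Zfp982 shared 81.3% of its 12-base runs with at least one other window of the group, and that of Zfp984 shared 25.4%. Zfp993 also shared none, but its RefSeq window lies 98112 bases from the GENCODE start of the gene. The window of Zfp981, which did share runs, lies 12893 bases from its GENCODE start. Those of Zfp935 and Zfp936, counted among the 51, lie 91699 and 63361 bases away. Searched on both strands, CCAAT (the box bound by NF-Y) was in 39 of the 51 windows and in 8 of the 10 on chromosome 4, against 37.4% of all 32851 windows. GGGCGG (the GC box) was in 18 of 51 and in 7 of 10, against 35.7%. TATAAA was in 0 of 51, against 13.6%, and TGACGTCA (the full cAMP response element) in 1 of 51, against 1.79%. None of the motifs is part of another, but matches can overlap. All 7 chromosome 4 windows with GGGCGG hold the stretch TATTGGGCGGG, in which GGGCGG overlaps CCAAT, read there as ATTGG. The 8 of 10 and 7 of 10 are thus not independent of each other, nor are the windows that share this stretch. A match describes letters in a window and not a bound site.

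The values are normalized scores without a known depth, and the reads behind near-identical copies cannot be assigned with certainty. Of all 75-base windows of a member's transcripts, the length of the reads' cycles, the share also found in a transcript of another gene was over 50% for 15 members, at most 10% for 30 and 0 for 6. The median share was 47.8% on chromosome 4 (0.0703% to 81.7%) and 76.0% on chromosome 2, against 2.90% on chromosome 17 and 8.93% on chromosome 7. Values of members with a high share are uncertain, because the counting program (RSEM) splits shared reads by estimate. The labels state no strand for the libraries, so reads of an overlapping gene on the other strand could not be told apart from the member's own. On chromosome 4, 10 of the 16 members overlap another annotated gene. As for the libraries, totals lay between 4143561 and 4162600 in all 26. Summed over 10 fibroblast markers, values were 60136 in MEF and 88 to 386 in CiPSC. Summed over 10 pluripotency markers they were 1163 in MEF and 28580 to 45739 in CiPSC. Klf4, on the pluripotency list, went the other way, at 1150 in MEF and 682 to 923 in CiPSC. Apart from Klf4, these labels and markers go together. The 8 macrophage markers summed to 3978 in MEF and to 26 to 448 elsewhere, and their part in the MEF values below was not tested. The 4 endothelial markers summed to 60 in MEF and 542 to 866 in CiPSC, and 4 neural markers to 581 in MEF and 370 to 954 in CiPSC. The members of these lists went different ways. From MEF to CiPSC, Pecam1 was 6 and 404 to 540 and Tek 12 and 62 to 328. Cdh5 was 2 and 0, and Kdr 40 and 2 to 24. Map2 was 481 and 22 to 86, and Tubb3 100 and 270 to 860. Pax6 and Sox1 were at 26 or less in both.

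**Figure D1:**
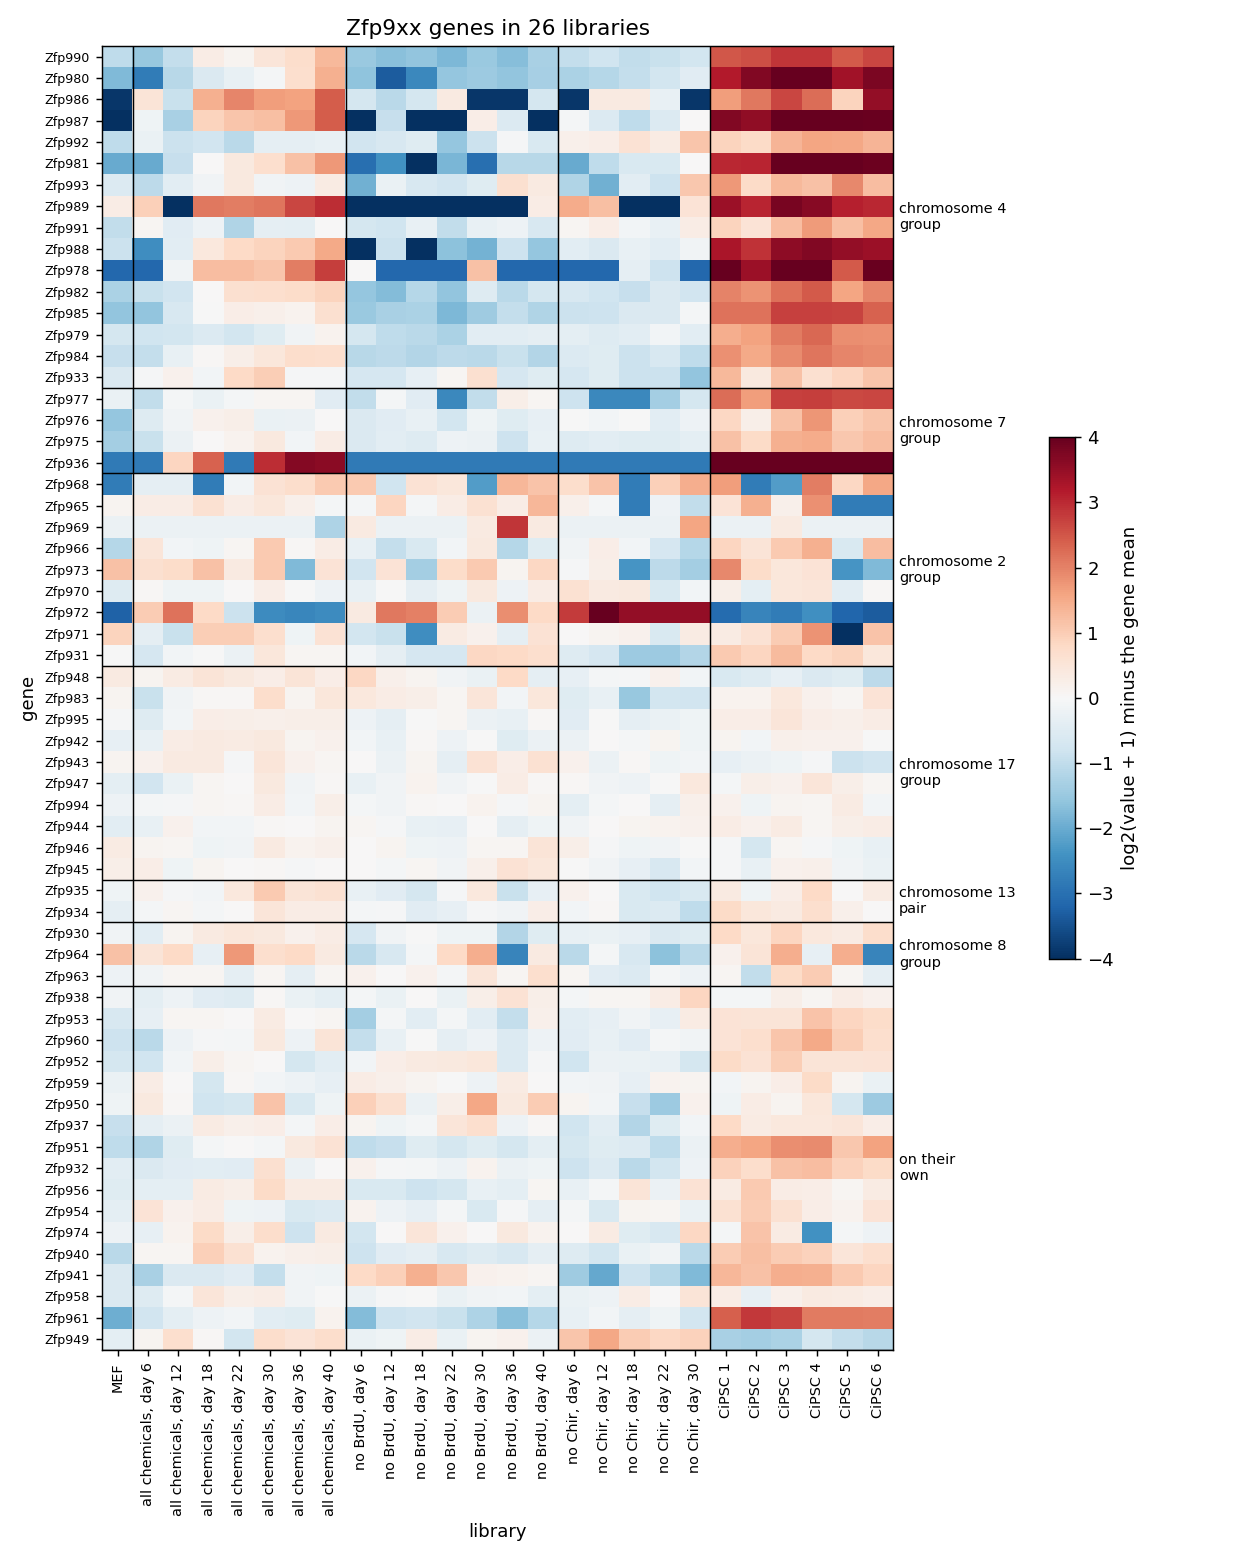
Values of the 61 genes (rows, grouped by place in the genome) in the 26 libraries (columns), as log2(value + 1) minus the mean of the gene, with blue below and red above that mean. The chromosome 4 group is red in the 6 CiPSC columns and pale to red late in the course with all chemicals, Zfp936 is at its lowest in every column without BrdU or without Chir, and Zfp972 is red in the 5 columns without Chir.

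Summed over its 16 genes, the chromosome 4 group was low in MEF, higher late in the course with all chemicals, lower without BrdU on each of the 7 days and highest in CiPSC. The sum was 923 in MEF. With all chemicals it was 1076, 1188, 1915, 2007, 2331, 2700 and 3647 on days 6, 12, 18, 22, 30, 36 and 40. Without BrdU it was 827, 865, 871, 730, 1072, 1224 and 1097 on the same days, and without Chir 1414, 1457, 1479, 1482 and 1964 on days 6 to 30. In the 6 CiPSC libraries it was 8991 to 14429, so no CiPSC library overlapped any other library. The ratio of the course with all chemicals to that without BrdU was 1.30 on day 6 and 2.75 on day 22. In bulk RNA, fewer cells that express a gene and less RNA per cell cannot be told apart.

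Over MEF and the 7 days of the course with all chemicals, 14 of the 60 tested members had a slope that passed the test (limma, Benjamini-Hochberg adjusted p under 0.05), all upward, beside 16.7% of all genes called, 9.31% upward and 7.42% downward. Of those 14, 10 lay on chromosome 4, where all 16 slopes were positive, and 2 on chromosome 7. The median slope per 10 days was 0.61 log2 units on chromosome 4, 0.13 in the 44 tested members elsewhere and 0.01 over all genes. Pluripotency markers moved over the same course. Their sum ranged from 2418 to 7615, with Klf4 alone at 2033 to 6078. Of the 10, 7 were at their highest on day 40, Pou5f1 among them at 1046. Pou5f1, Nanog, Sox2, Zfp42, Utf1 and Fbxo15 were each listed at 0 on at least one day of that course, and the part of pluripotent cells in the rise of the zinc finger genes was not tested.

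Zfp980 shows the pattern at a high level. It was 46 in MEF and 22, 74, 107, 130, 152, 258 and 429 on days 6 to 40 with all chemicals, a slope of 0.88 ± 0.12 (SE) log2 units per 10 days (adjusted p = 0.00333, limma). Without BrdU it was 52, 15, 26, 54, 58, 53 and 64 on the same days, below the other course on 6 of 7 days. In CiPSC it was 1448, 2112, 2918, 3242, 1656 and 2218, so the lowest CiPSC library lay above day 40. Its promoter is among those printed above, and 56.1% of its windows are shared, most of them with Rex2, another zinc finger gene of the segment.

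Zfp990, with 11.6% of its windows shared, gave the same order with little shared sequence. It was 156 in MEF and 111, 164, 394, 345, 448, 516 and 792 with all chemicals (slope 0.64 ± 0.09, adjusted p = 0.00376). Without BrdU it stayed between 90 and 128, and in CiPSC it lay between 1762 and 2336. Zfp985 and Zfp982, with 4.36% and 4.93% shared, rose from 58 to 276 and from 66 to 230 between days 6 and 40, with slopes of 0.55 ± 0.10 (adjusted p = 0.00736) and 0.57 ± 0.08 (adjusted p = 0.00378). Zfp981 rose from 7 on day 6 to 106 on day 40, with a slope of 0.96 ± 0.12 (adjusted p = 0.00207). Per kb of exon, the mean over all libraries was 184 for Zfp990, 150 for Zfp980, 127 for Zfp982 and 112 for Zfp985, which with Zfp972 and Zfp960 (94.6) are the highest of the 61. Whether the deposited values were already divided by length is not given in the sources used here.

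Zfp987, Zfp986 and Zfp978 were listed at 0 in MEF, as was Zfp936 of the chromosome 7 group, and all 4 were at 20 or more in every CiPSC library. Zfp987 was 36, 16, 77, 90, 96, 138 and 226 with all chemicals and 489 to 1039 in CiPSC. Zfp986 was 20, 7, 38, 56, 46, 44 and 78, and 26 to 168 in CiPSC, where its range overlapped the late days. Zfp978 was 0, 7, 20, 20, 18, 36 and 59, and 48 to 245 in CiPSC. These genes were named for their 0 in MEF, a library that the slope also uses. With MEF, their slopes were 1.47 ± 0.32, 1.18 ± 0.30 and 1.45 ± 0.24 (adjusted p = 0.0155, 0.0299 and 0.0061). Without MEF they were 0.87, 0.66 and 1.35 (adjusted p = 0.0148, 0.0801 and 0.0164), so that of Zfp986 no longer passed. That call was also lost without day 12, 30, 36 or 40. With values at 0, all 3 slopes depend on the 1 added before the log. Their windows are shared at 81.7%, 77.4% and 66.4%.

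**Figure D2:**
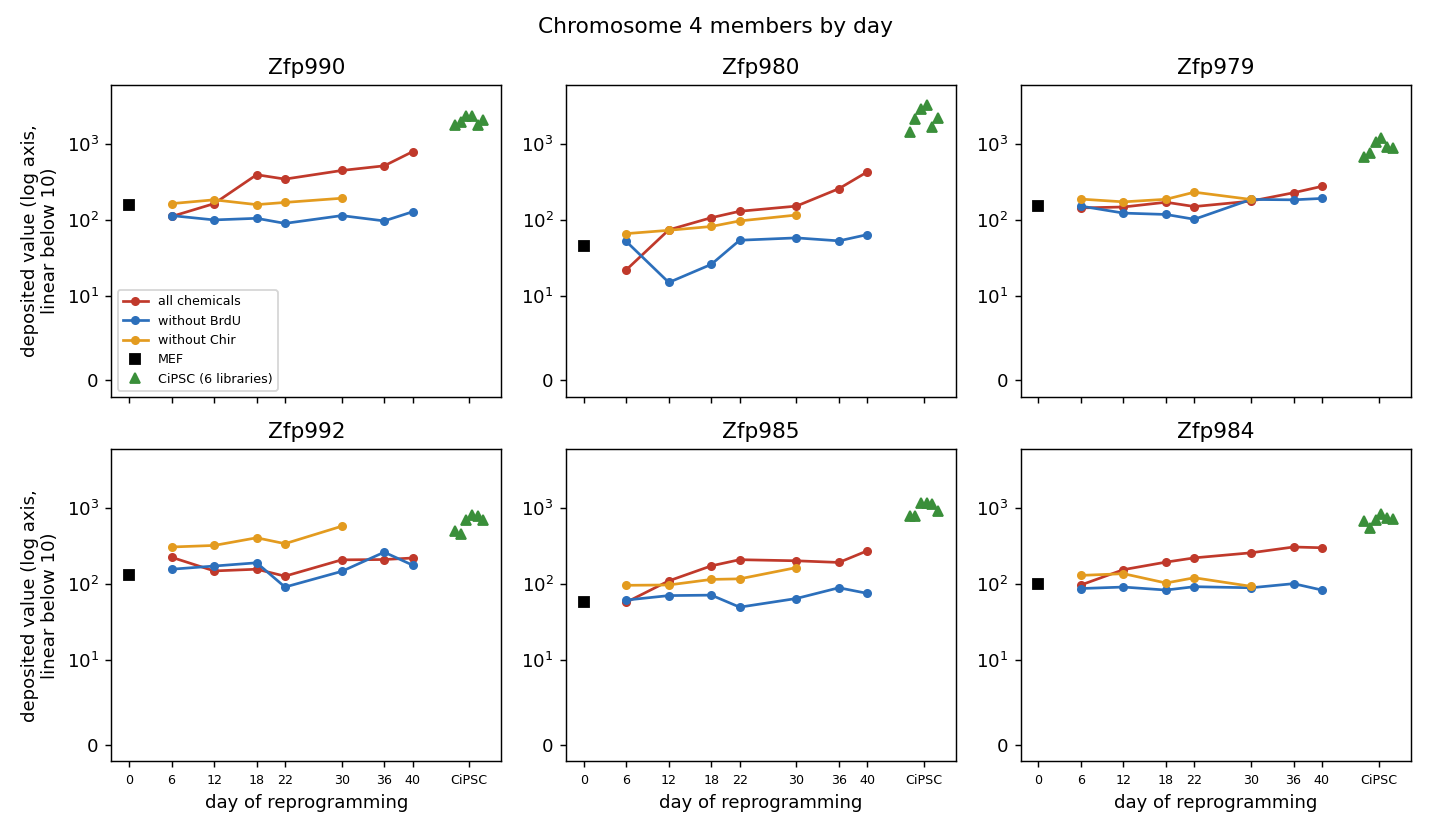
Deposited value (log axis, linear below 10) by day for the 6 chromosome 4 members with the highest mean. Red is the course with all chemicals, blue that without BrdU, yellow that without Chir, the black square MEF and green triangles the 6 CiPSC libraries. Zfp980 climbs in red from 22 to 429 while the blue line ends at 64, and Zfp992 is highest among the courses without Chir, at 310 to 582.

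Most of the chromosome 4 group was lower without BrdU. Against the course with all chemicals over the 7 shared days, 3 of the 61 members were higher and 19 lower, 22 in all, beside 42.6% of all genes called and 21.5% called lower. The share of members called was thus below that of all genes. On chromosome 4, 0 were higher and 10 lower of 16, all 16 differences were negative, and their median was -1.44 log2 units against 0.02 over all genes and -0.14 in the 45 other members. Marker sums differed between the same libraries. The 10 primitive endoderm markers summed to 3204 to 17003 with all chemicals, 1345 to 5597 without BrdU and 39 to 101 in CiPSC. Pdgfra, also on the fibroblast list, was 2556 to 6088 with all chemicals and 942 to 4974 without BrdU. Without BrdU, Gata4 was 2 to 10, Sox17 0 to 18, Foxa2 0 to 2 and Hnf4a 1 to 4. Gata6 and Dab2 were 166 to 390 and 181 to 540 there. The 10 pluripotency markers summed to 2418 to 7615 with all chemicals and to 611 to 2045 without BrdU, with no overlap. Klf4 alone was 2033 to 6078 and 598 to 2032 in the same order, also with no overlap. Pou5f1 did overlap, at 0 to 1046 against 0 to 16, as did Nanog, at 0 to 771 against 0 to 6. The part of either list in the difference was not tested. With the days limited to 6 to 30, 12 of the 61 were called, 7 of them lower on chromosome 4. Of the 8 chromosome 4 members with at most 50% of their windows shared, 5 were lower.

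On chromosome 4, the largest fall was in Zfp989, which was 32, 0, 72, 69, 74, 106 and 130 with all chemicals and listed at 0 without BrdU until a value of 20 on day 40 (-4.71 ± 0.80 log2 units, adjusted p = 0.00239). Zfp987 was at 0 on 4 of the 7 days without BrdU and at 21 to 50 on the others (-4.09 ± 0.98, adjusted p = 0.00996). Zfp988, 13 to 223 with all chemicals and 0 to 43 without BrdU, fell by 3.01 ± 0.62 (adjusted p = 0.00511). Zfp986 and Zfp981 fell by 2.76 ± 0.68 and 2.65 ± 0.47 (adjusted p = 0.0109 and 0.00282). Each of these genes was listed at 0 at least once without BrdU. The size and order of their falls thus depend on the 1 added before the log. The windows of Zfp989 and Zfp988 are shared at 54.8% and 56.1%. Over days 6 to 30 alone, the calls of Zfp987 and Zfp986 were lost (adjusted p = 0.0561 and 0.0812). Zfp982, with a low share of common windows, fell by 1.37 ± 0.20 (adjusted p = 0.0013) and Zfp984, at 40.9%, by 1.19 ± 0.20 (adjusted p = 0.00224), and both were lower without BrdU on 7 of 7 days. Zfp980 fell by 1.52 ± 0.42 (adjusted p = 0.0174), a call lost without day 36 or day 40 (adjusted p = 0.0510 in each case) and over days 6 to 30 (adjusted p = 0.138).

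Within the course without BrdU, 0 of 60 members had a slope that passed the limma test, and 1 had an unadjusted p under 0.05, beside 0.875% of all genes called. That the slope with all chemicals passed and this one did not is not a test of their difference, which was not run.

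Members of the group were not alike. Zfp992 differed little between the courses with all chemicals (128 to 227) and without BrdU (92 to 265), by -0.14 ± 0.15 (adjusted p = 0.468). It was 310, 325, 410, 343 and 582 without Chir, above the course with all chemicals on 5 of 5 days, by 1.16 ± 0.18 (adjusted p = 0.0115). Zfp933, which lacks the shared promoter runs and has 0.0703% of its windows shared, was low throughout: 15 in MEF, 21 to 46 with all chemicals, 14 to 36 without BrdU, 7 to 16 without Chir and 30 to 57 in CiPSC.

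**Figure D3:**
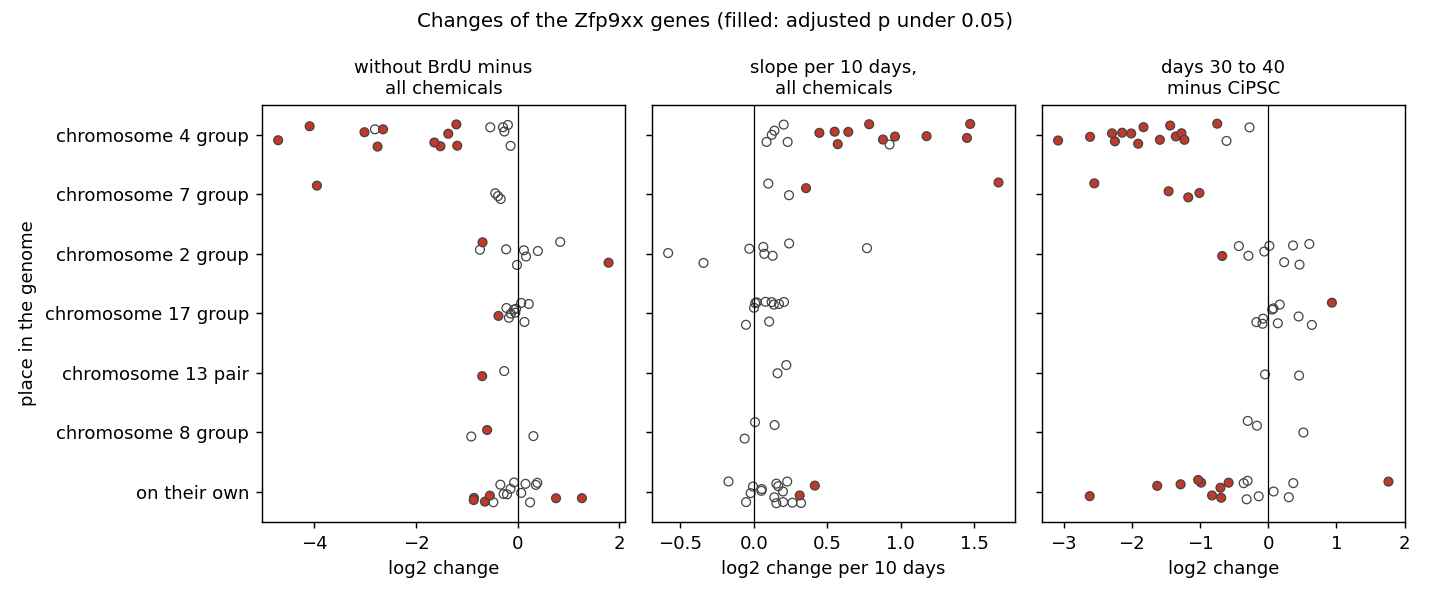
Log2 change of each of the 61 genes by place in the genome, for the course without BrdU against that with all chemicals, the slope per 10 days of the course with all chemicals, and days 30 to 40 of that course against CiPSC. Each point is a gene, filled where the adjusted p was under 0.05. The chromosome 4 row lies left of 0 in the left and right panels and right of 0 in the middle one, while the chromosome 17 row lies within 1 log2 unit of 0 in all 3.

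Without Chir, 3 members were higher and 4 lower of 61 against the course with all chemicals on the 5 shared days, beside 26.5% of all genes called. The 3 higher were Zfp972, Zfp992 and Zfp949, and the 4 lower were Zfp978 (-2.18 ± 0.63, adjusted p = 0.0416), Zfp973 (-1.70 ± 0.51, adjusted p = 0.0476), Zfp933 (-1.25 ± 0.38, adjusted p = 0.0465) and Zfp940 (-0.92 ± 0.22, adjusted p = 0.0256). Zfp949 was 130, 192, 124, 72 and 196 with all chemicals and 264, 352, 245, 216 and 228 without Chir (0.93 ± 0.20, adjusted p = 0.0207). All 4 lower calls were lost without day 12 or day 30. Those of Zfp978, Zfp973 and Zfp933 were lost when genes were not filtered on low values, and that of Zfp978 with no day block. Without Chir, Zfp978 was 0, 0, 6, 4 and 0 and Zfp973 was 9, 11, 1, 4 and 3. The sizes of these 2 differences thus depend on the 1 added before the log. Leaving out day 18 or day 22 left 0 members called by limma. In these fits 11 and 9 members had an unadjusted p under 0.05, and 25 and 226 genes of the whole table were called. Summed over the 16 chromosome 4 members, the ratio of the course with all chemicals to that without Chir was 0.761 on day 6, 1.35 on day 22 and 1.19 on day 30.

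Set against each other on the same 5 days, the course without Chir was higher than that without BrdU in 11 members and lower in 6 of the 60 tested, beside 32.2% of all genes called. The 3 comparisons between courses share libraries, so they are not independent of one another. On chromosome 4, 8 of 16 were higher and 0 lower, beside 16.9% of all genes called higher. The median was 0.69 log2 units on chromosome 4 and 0.005 over all genes. Without day 6 or without day 18, 5 of the 16 were higher. Zfp992 was higher by 1.36 ± 0.20 (adjusted p = 0.00292), Zfp980 by 1.20 ± 0.29 (adjusted p = 0.0181) and Zfp981 by 2.22 ± 0.56 (adjusted p = 0.0226). Without day 18 the adjusted p was 0.0745 for Zfp980 and 0.0589 for Zfp981, and without day 30 it was 0.0607 for Zfp981. For Zfp988 (3.03 ± 0.92) and Zfp987 (2.94 ± 0.92) the adjusted p was 0.0421 and 0.0450. Both calls were lost when genes were not filtered on low values, with no intensity trend, and without day 6, 18 or 22. Without BrdU on days 6 to 30, Zfp988 was 0, 42, 0, 24 and 20 and Zfp987 was 0, 21, 0, 0 and 50. Zfp981 was 3, 5, 0, 8 and 3 there. The sizes for Zfp988, Zfp987 and Zfp981 thus depend on the 1 added before the log. The 6 lower were Zfp941, Zfp950, Zfp983, Zfp937, Zfp952 and Zfp932. Those of Zfp937, Zfp952 and Zfp932 were lost without day 18 or day 22, and that of Zfp950 with no day block (adjusted p = 0.0681). Zfp941 was 64, 71, 98, 78 and 41 without BrdU on days 6 to 30 and 13, 8, 20, 16 and 10 without Chir, with no overlap (-2.32 ± 0.23, adjusted p = 0.000837). Zfp941 lies on its own on chromosome 7 and was 14 to 33 with all chemicals, below the course without BrdU on 7 of 7 days (1.26 ± 0.28 without BrdU, adjusted p = 0.00712). Zfp950 was also higher without BrdU than with all chemicals, by 0.75 ± 0.16 (adjusted p = 0.00638), a call lost with no day block (adjusted p = 0.0834).

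In most chromosome 4 members, CiPSC stood above even the last days of the course. The CiPSC libraries are named as a separate set, so in any comparison with CiPSC, cell state and preparation cannot be told apart. Days 30 to 40 with all chemicals were higher than the 6 CiPSC libraries in 2 members and lower in 28 of 61, beside 55.3% of all genes called and 29.3% called lower. On chromosome 4, 14 of 16 were lower, with a median of -1.71 log2 units against -0.08 over all genes, the 2 not called being Zfp986 (-0.28) and Zfp933 (-0.61). All 4 members of the chromosome 7 group were lower. The difference was -3.08 ± 0.33 in Zfp980 (adjusted p = 3.92e-05), -2.61 ± 0.37 in Zfp981 (adjusted p = 0.000203), -2.29 ± 0.30 in Zfp987 (adjusted p = 0.00012) and -2.25 ± 0.19 in Zfp988 (adjusted p = 9.6e-06). Of the 8 chromosome 4 members with at most 50% of their windows shared, 7 were lower.

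Set against CiPSC, the single MEF library, whose spread is assumed to be that of CiPSC, was higher in 1 member and lower in 31 of 61, beside 40.9% of all genes called and 22.9% called lower. All 16 chromosome 4 members and all 4 of the chromosome 7 group were among the 31. Zfp981 was 7 in MEF and 259 to 770 in CiPSC (-5.81 ± 0.62, adjusted p = 0.000842), and Zfp980 differed by -5.53 ± 0.45 (adjusted p = 0.000252). This comparison shares its CiPSC libraries with that of days 30 to 40, so the values stand side by side and no agreement is read from them. Every CiPSC library lay above the 20 other libraries in 20 of the 61 members, beside 13.4% of all genes, and in 11 of the 16 on chromosome 4. No member had every CiPSC library below the 20 others, beside 10.5% of all genes.

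**Figure D4:**
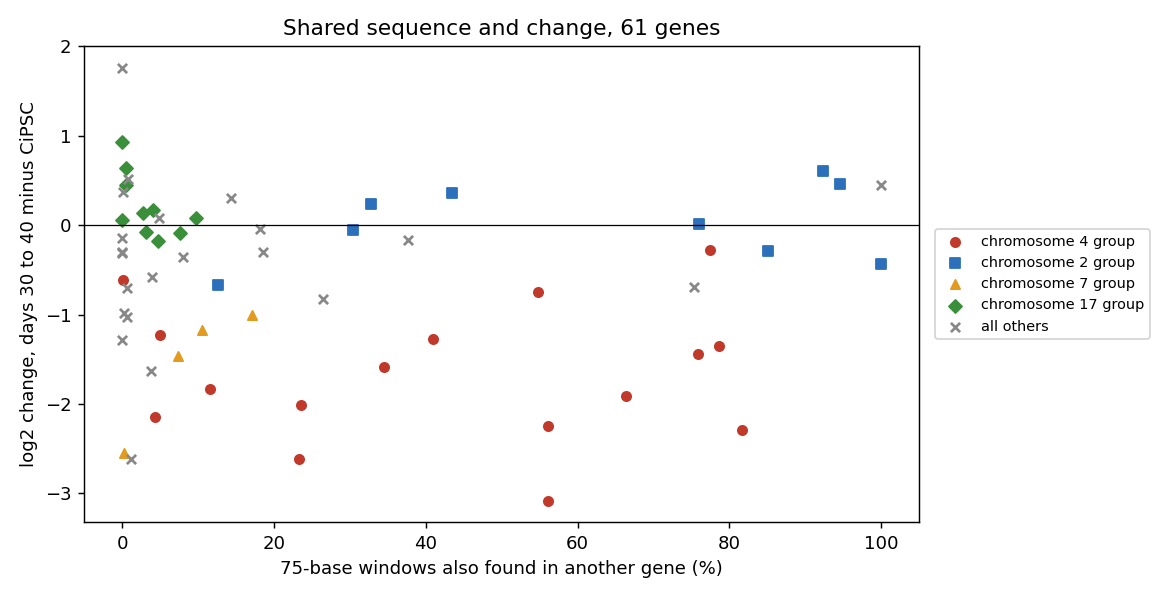
Share of 75-base transcript windows that also occur in another gene (horizontal, percent) against the log2 change between days 30 to 40 with all chemicals and CiPSC (vertical), for the 61 genes, coloured by place. Chromosome 4 members (red) lie below 0 from 0.0703% to 81.7% shared, and chromosome 2 members (blue) lie near 0 from 12.6% to 100%.

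The chromosome 7 group of Zfp977, Zfp976, Zfp975 and Zfp936 was highest in CiPSC too, with 0.296% to 17.1% of windows shared. Zfp936 was listed at 0 in MEF and in all 12 libraries without BrdU or without Chir, and was 0, 12, 36, 0, 54, 90 and 86 with all chemicals and 146 to 248 in CiPSC. Against the course without BrdU it was called (adjusted p = 0.00892), but not over days 6 to 30 (adjusted p = 0.0815), and no fold is given because it was listed at 0 in every library of that course. Its slope passed the test (adjusted p = 0.0323) but not without MEF or without day 6, 30, 36 or 40. Zfp977 was 8 to 18 with all chemicals and 56 to 121 in CiPSC (-2.55 ± 0.30 on days 30 to 40, adjusted p = 6.24e-05). Zfp975 and Zfp976 were 42 to 102 and 66 to 112 with all chemicals, and 134 to 220 and 112 to 322 in CiPSC, Zfp976 thus meeting at 112.

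Zfp972 followed a course of its own among the 61. It was 75 in MEF and 71 to 130 in CiPSC. With all chemicals it was 1448, 3242, 1244, 394, 125, 118 and 125 on days 6 to 40, a peak on day 12 and a return to the CiPSC range by day 30. Without BrdU it was 935, 3102, 2917, 1476, 608, 2638 and 1260, above the other course on the 5 days from 18 to 40. Without Chir it was 4982, 11346, 8336, 8336 and 8336, above both other courses on 5 of 5 days. The equal values are equal ranks, since all libraries were brought to a common distribution: Zfp972 ranked 21 of 16718 genes on each of days 18, 22 and 30, and 11 on day 12.

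Against the course with all chemicals, Zfp972 was higher without Chir by 3.36 ± 0.62 log2 units (adjusted p = 0.0151) and without BrdU by 1.79 ± 0.56 (adjusted p = 0.0286). Without Chir it was higher than without BrdU by 2.41 ± 0.31 (adjusted p = 0.00181). The call without BrdU was lost with no block for day (adjusted p = 0.0690), without any of days 22, 30, 36 or 40, and over days 6 to 30 alone, where the difference was 0.94 (adjusted p = 0.160). The call without Chir against all chemicals was lost without day 18 (3.51, adjusted p = 0.0702) or day 22 (3.10, adjusted p = 0.0687). Zfp972 (chr2:177903340-177925613, minus strand) has 0.864 kb of exon and no finger match. Gm14327 overlaps it, and 43.4% of its windows also occur in other genes. Its slope with all chemicals was -0.58 ± 0.44 with MEF (adjusted p = 0.398) and -1.45 ± 0.23 over the 7 days without MEF (adjusted p = 0.00564). Whether the reads come from Zfp972 itself was not tested. Its RefSeq promoter window is shown because no other member reached such a level. Capitals mark the 50 bases after the start.
Zfp972 (chr2:177925601-177925900, - strand): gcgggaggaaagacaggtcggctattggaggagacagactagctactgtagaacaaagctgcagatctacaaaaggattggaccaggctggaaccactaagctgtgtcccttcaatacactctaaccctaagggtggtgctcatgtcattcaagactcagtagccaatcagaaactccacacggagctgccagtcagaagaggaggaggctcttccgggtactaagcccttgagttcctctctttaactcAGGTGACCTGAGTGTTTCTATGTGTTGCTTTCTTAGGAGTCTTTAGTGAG

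**Figure D5:**
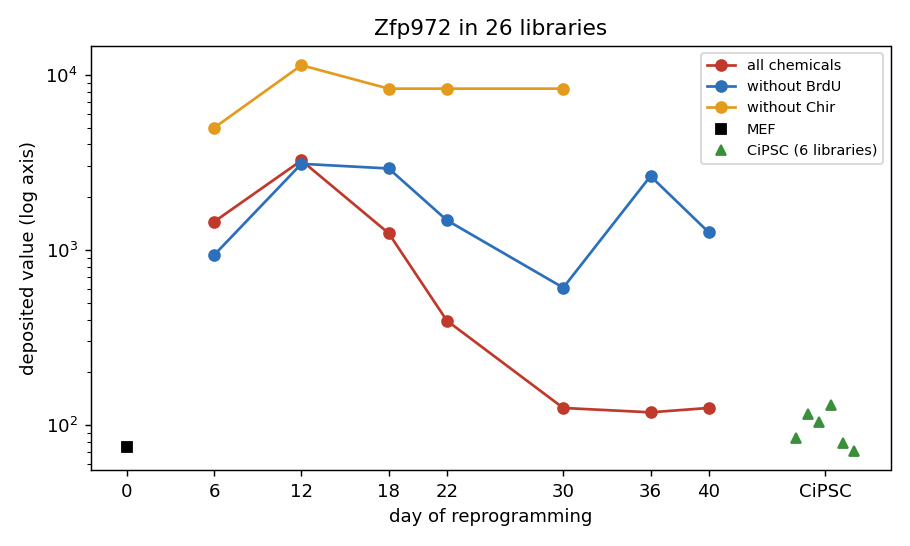
Deposited value of Zfp972 (log axis) by day of reprogramming for the 3 courses, with MEF as a black square and the 6 CiPSC libraries as green triangles. The line without Chir stays between 4982 and 11346, and the line with all chemicals falls from 3242 on day 12 to 125 on day 40.

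The other 8 members of the chromosome 2 group did not share that rise. Zfp966 had the highest CiPSC median of them, 148 (50 to 206). It was lower without BrdU (34 to 100) than with all chemicals (67 to 157) on 7 of 7 days (-0.69 ± 0.16, adjusted p = 0.0075, limma). Of its windows, 85.1% also occur in other genes, 67.4% in Zfp968, so its value is uncertain. Zfp970 was between 51 and 120 in all 26 libraries, and Zfp969, all of whose windows also occur in other genes, was at 16 or less. Zfp931 was called lower on days 30 to 40 than in CiPSC. That call was lost without day 30, 36 or 40 and without CiPSC replicate 1, 2, 3, 4 or 5. Against CiPSC, 1 of the 9 members of the group was called on days 30 to 40, and 0 of 9 in MEF by limma, where 2 had an unadjusted p under 0.05.

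For the 10 genes on chromosome 17, the summed value was 1329 in MEF, 1218 to 1641 with all chemicals, 1233 to 1490 without BrdU, 1188 to 1342 without Chir and 1231 to 1485 in CiPSC, so the MEF value lay inside the range of each other group. Without BrdU, 1 of the 10 was called, Zfp942 (-0.38 ± 0.12, adjusted p = 0.0339), and the call was lost with no intensity trend, with any single day but day 6 left out, and over days 6 to 30 (adjusted p = 0.151). Zfp983 was lower without Chir than without BrdU by -1.07 ± 0.21 (adjusted p = 0.00925). Zfp948 was 96 to 158 in CiPSC against 216 to 287 with all chemicals and 256 in MEF. It was higher than CiPSC by 0.93 ± 0.17 on days 30 to 40 (adjusted p = 0.000891) and by 0.95 ± 0.25 in MEF (adjusted p = 0.0265, and 0.0530 without CiPSC replicate 1). The other MEF call was Zfp944, lower than CiPSC by -0.65 ± 0.12 (adjusted p = 0.00676). Zfp994 and Zfp942, the other abundant members, were 161 to 262 and 124 to 229 over all libraries.

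Among the 17 genes on their own, Zfp961 and Zfp949 moved in opposite directions. Zfp961 was 18 in MEF, 42 to 80 with all chemicals, 21 to 42 without BrdU and 303 to 522 in CiPSC, with no overlap between CiPSC and the rest. It differed from CiPSC by -2.62 ± 0.23 on days 30 to 40 (adjusted p = 1.1e-05) and was lower without BrdU than with all chemicals on 7 of 7 days (-0.86 ± 0.18, adjusted p = 0.00516). Cyp4f18 overlaps it. Zfp949 was 46 to 74 in CiPSC and 177 to 197 on days 30 to 40, higher there by 1.76 ± 0.19 (adjusted p = 4.3e-05). Zfp960, which has 75.3% of its windows in common with other genes, mostly Zfp97, was 108 to 324 with all chemicals and 330 to 652 in CiPSC. Zfp951 rose with all chemicals from 28 on day 6 to 98 on day 40 (slope 0.42 ± 0.09, adjusted p = 0.014, and 0.0528 and 0.0572 without day 36 or day 40) and was 140 to 246 in CiPSC. On chromosomes 8 and 13, the 3 and 2 grouped members gave 1 lower call each without BrdU, Zfp930 (-0.60 ± 0.16, adjusted p = 0.0162) and Zfp935 (-0.70 ± 0.18, adjusted p = 0.0124). Both calls were lost over days 6 to 30 (adjusted p = 0.0739 and 0.0627). All windows of Zfp935 also occur in other genes, 99.2% of them in Gm49359, so its value cannot be separated from theirs.

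A list of 47 genes covers the silencing machinery that KRAB zinc finger proteins act through and some related genes. In most comparisons 46 of them were tested. The list also holds the KRAB zinc finger genes Zfp57, Zfp809 and Zfp568, as well as Yy1, Dppa2 and Dppa4. The counts below include these genes. Dppa2 and Dppa4 differed by -3.81 and -3.51 without BrdU. Without BrdU, 4 were higher and 26 lower of 46, with a median of -0.54 log2 units, beside 42.6% of all genes called, 21.5% called lower and a median of 0.02. Over the course with all chemicals, 14 of 46 rose and 0 fell, beside 16.7% and 9.31% of all genes called and called upward. On days 30 to 40, 3 were higher and 28 lower than in CiPSC, beside 55.3% called and 29.3% called lower. Without Chir, 0 were higher and 15 lower, beside 26.5% called and 12.9% called lower. Trim28, the scaffold that binds the KRAB domain, was 980 in MEF, 1712 to 2758 with all chemicals, 808 to 1648 without BrdU and 4201 to 6860 in CiPSC. Against all chemicals it differed by -0.95 ± 0.20 without BrdU (adjusted p = 0.00548) and by -0.78 ± 0.17 without Chir (adjusted p = 0.0204). Setdb1 was 328 to 858 with all chemicals and 102 to 434 without BrdU (-1.13 ± 0.18, adjusted p = 0.00185).

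Among the DNA methylation genes, Uhrf1, which brings Dnmt1 to newly copied DNA, was 132, 276, 386, 341, 366, 416 and 489 with all chemicals and 108, 50, 24, 26, 7, 3 and 7 without BrdU (-4.07 ± 0.69, adjusted p = 0.00233). It was 106, 59, 45, 39 and 25 without Chir (-2.50 ± 0.47, adjusted p = 0.0152) and 1190 to 2628 in CiPSC. Dnmt1, the maintenance methyltransferase, differed by -1.17 ± 0.21 without BrdU (adjusted p = 0.003). Of the KRAB zinc finger genes with known roles, Zfp809, which silences retroviruses in stem cells, differed by -0.72 ± 0.20 without BrdU (adjusted p = 0.0184), and Zfp57, which protects imprints, was higher by 0.64 ± 0.15 (adjusted p = 0.00986). Zfp568, named after its value was seen and known for repressing a placental transcript of Igf2, differed by -2.49 ± 0.37 (adjusted p = 0.00145). Zfp57 was 82 to 232 with all chemicals and 842 to 2038 in CiPSC.

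Numbered Zfp genes outside the 61 numbered 292. Without BrdU, 34 of them were higher and 61 lower, 32.5% called against 42.6% of all genes, with a median of -0.07. On days 30 to 40, 41 were higher and 79 lower than in CiPSC, 41.1% called against 55.3%. The chromosome 4 segment holds 17 other genes of the table. Several overlap members, and some, such as Rex2 and Zfp600, share windows with members. Their values are thus not separate from those of the members. Without BrdU, 0 of the 16 tested were higher and 10 lower, beside 21.5% of all genes called lower. On days 30 to 40, 0 were higher than CiPSC, 10 lower and 7 not called, beside 29.3% of all genes called lower. They were not alike: Gm26880 was 413 in MEF, 199 on day 40 with all chemicals and 386 to 722 in CiPSC, and did not pass the test without BrdU (-0.10, adjusted p = 0.735). The next 3 were named after their values were seen. Zfp600 was listed at 0 in MEF, reached 212 on day 40 with all chemicals and was 768 to 2629 in CiPSC. Rex2 was 14, 370 and 855 to 2276 in the same order, and Zfp534 was 78, 270 and 541 to 950. Without BrdU, Zfp600 did not pass the test (adjusted p = 0.101). On days 30 to 40 these 3 differed from CiPSC by -3.48, -3.22 and -1.77 (adjusted p = 9.25e-05, 0.000295 and 9.15e-05).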

How the data were processed

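Total RNA was extracted with TRIzol, made into TruSeq RNA libraries and read on a NextSeq 500, per the labels' protocols. Bowtie2, RSEM, bcl2fastq and mm10 are named, without versions, per the submitters' processing notes. The annotation and normalization are not given in the sources used here. The deposited table is named CPM, but its values are treated as a score: sums (4143561 to 4162600), medians (76 to 77) and maxima (21988) are nearly equal in all libraries and contradict CPM, so the values are taken as brought to a common distribution by the authors and rounded, a step no source records. Depth is therefore unknown.

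Values were analysed as log2(value + 1) with limma 3.58.1 in R 4.3.3, with an intensity trend, leaving out genes whose mean over the fitted libraries was under 1. Tests were two-sided and adjusted by Benjamini-Hochberg over all genes tested, and called at an adjusted p under 0.05. Day was a block wherever courses were compared. Courses have 1 library a day, so days were the only repeats, are not independent, and carry change with time in the residual. Errors are moderated standard errors (SE). Low genes are understated by the added 1.

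Positions came from GENCODE M21, promoters from RefSeq. Finger matches used C, 2 residues, C, 12 residues, H, 3 to 5 residues, H. The KRAB pattern was tried in 3 forms, each widened or changed after the matches were seen, and the form with the most matches was kept last. The limits of 10% and 50% shared windows, the 12-base runs, the counts of promoters required, the 4 motifs, the printed promoters and the table of other chromosome 4 genes were also chosen after values or sequences were seen. The members, lists and comparisons were chosen with earlier results of these data known. Named genes are, per comparison, the 6 called members with the largest change in each direction, the 6 highest per kb of exon, members at 0 in MEF and 20 or more in every CiPSC library, and up to 4 per genomic group by mean. Other members were named after their values were seen. Alternatives were a pseudocount of 5, a mean of at least 5, no filter, no intensity trend, no day block, days 6 to 30 and leaving out each library or day.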

Additional observations from a re-analysis of the deposited data

Results flagged for a closer look

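In 4 of the 61 genes, 1 of the 6 CiPSC libraries lay apart from the other 5 by a gap above Dixon's 95% critical value of 0.625 of the range. Chance gives about 1 such group in 20. Zfp995 was 146 in CiPSC 3, with the next highest at 128 and the lowest at 121. Zfp969 was 2 in CiPSC 3 and 1 in the others. Zfp956 was 84 in CiPSC 2, against 42 to 50. Zfp958 was 93 in CiPSC 2, against 135 to 152.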

How the results depend on the processing

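No called member changed direction under any alternative run. The number of members called stayed within 1.5 times its value under the other pseudocount, filters, trend setting and, between courses, no day block. Without BrdU against all chemicals, 22 members were called, 12 over days 6 to 30 alone and 17 to 25 with a day left out. Without Chir against all chemicals, 7 were called and 0 to 14 with a day left out, 0 without day 18 or day 22 and 14 without day 6. Between the courses without Chir and without BrdU, 17 were called and 10 to 17 with a day left out, 10 without day 18 and 11 without day 6 or day 22. On chromosome 4, that comparison gave 5 to 9 higher calls over the alternatives. For the slope with all chemicals, 14 were called and 8 to 15 with a library left out, 8 without day 40, and 2 of the 13 called without MEF were falling, Zfp972 (-1.45, adjusted p = 0.00564) and Zfp954 (-0.33, adjusted p = 0.0469). On chromosome 4, the slope gave 8 to 11 rising calls over the alternatives, without BrdU 7 to 12 lower, days 30 to 40 against CiPSC 13 or 14 lower and MEF against CiPSC 15 or 16 lower. Days 30 to 40 against CiPSC gave 30 (26 to 29 with a library left out) and MEF against CiPSC 32 (30 to 33). The slope without BrdU gave 0 throughout by limma, with 0 to 5 members at an unadjusted p under 0.05. Across alternatives, called members kept their call in 250 of 286 values without BrdU, 43 of 70 without Chir, 140 of 170 between those courses and 141 of 168 for the slope. The cause was not tested. Courses were paired by day, and without the day block 20, 8 and 17 members were called in the 3 comparisons between courses, against 22, 7 and 17 with it. The labels give no replicate numbers shared across groups. Unknown depth leaves values near 0 without an interval.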
